A study of Homo sapiens with 4 samples.

Results

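The SNAR genes encode closely related noncoding RNAs of 119 to 128 bases. The 7 copies described here, SNAR-B1, SNAR-B2, SNAR-C3, SNAR-C4, SNAR-E, SNAR-F and SNAR-G1, were taken by name from a table of 25548 gene symbols, which holds 28 SNAR copies in all. The copies were chosen by their FPKM in these same data, as copies far higher in the treated FaDu library than in its control, so their levels are a description and are given with no test. FaDu is an established squamous carcinoma line of the hypopharynx. One culture group was given vehicle, labelled DMSO, and the other 5 µM 5-aza-2'-deoxycytidine (Aza), which depletes DNA methyltransferases and so lowers DNA methylation, on days 1 to 3, with 100 nM trichostatin A (TSA), a histone deacetylase inhibitor, on day 3. The vehicle of TSA was ethanol. Each group is 1 stranded mRNA library, so no difference below has a replicate check, and the agents were not given apart. A second line, UMSCC47, had 1 library with vehicle and 1 with 3 µM Aza and 300 nM TSA. The order of its rows is in doubt and its columns are not used for SNAR values.

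SNAR RNAs arose in the African great ape lineage from the left arm of an Alu element, and are transcribed by RNA polymerase III from promoter elements inside the gene. They are bound by double-stranded RNA binding proteins, and are known for high levels in testis and in many transformed cell lines. Most copies lie in tandem arrays on the long arm of chromosome 19, and the G copies lie just upstream of the chorionic gonadotropin beta genes CGB1 and CGB2. RNAs of this kind normally carry no poly(A) tail, and the libraries were made with a kit that selects polyadenylated RNA.

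The 2 G copies are the ones whose sequence could be read here, and they are shown because G1 was above 0 in the treated library and its neighbour G2 was not. They were taken from the RefSeq promoter table (GRCh38.p14), as the 250 bases before the starts of CGB1 (chr19:49036896-49037145, minus strand) and CGB2 (chr19:49031640-49031889, plus strand). The authors' files are on hg19, so these positions serve only to place the sequences. Capitals mark the annotated SNAR copy, of which 126 of 128 bases of G1 and all 119 bases of G2 fall in the window. The copy ends 124 bases before the start of CGB1 and 102 bases before that of CGB2.
CGB1 upstream with SNAR-G1: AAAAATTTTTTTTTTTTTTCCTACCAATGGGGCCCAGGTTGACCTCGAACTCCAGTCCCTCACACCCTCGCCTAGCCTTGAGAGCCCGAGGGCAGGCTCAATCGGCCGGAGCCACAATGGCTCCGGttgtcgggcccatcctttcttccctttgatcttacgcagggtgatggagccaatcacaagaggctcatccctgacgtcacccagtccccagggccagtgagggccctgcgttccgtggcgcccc
CGB2 upstream with SNAR-G2: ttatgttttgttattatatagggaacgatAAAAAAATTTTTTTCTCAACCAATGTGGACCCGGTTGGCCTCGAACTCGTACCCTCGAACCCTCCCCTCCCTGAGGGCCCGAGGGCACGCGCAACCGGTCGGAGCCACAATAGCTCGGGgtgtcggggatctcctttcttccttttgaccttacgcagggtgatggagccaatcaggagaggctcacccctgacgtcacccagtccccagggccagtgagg

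Read on the strand opposite to the CGB gene, the copies end in a run of T. The tables used here give no strand for the copies. Capitals below mark GAGTTCGAGG, the longest stretch around TTCGA that both share, picked after the sequences were seen. It holds GTTCGA, the first letters of the core of the B box, the internal element that TFIIIC binds. The stretch starts at base 75 of G1 and base 72 of G2.
SNAR-G1: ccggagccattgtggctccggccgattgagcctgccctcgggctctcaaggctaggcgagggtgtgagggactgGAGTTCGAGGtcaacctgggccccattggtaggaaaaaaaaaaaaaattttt
SNAR-G2: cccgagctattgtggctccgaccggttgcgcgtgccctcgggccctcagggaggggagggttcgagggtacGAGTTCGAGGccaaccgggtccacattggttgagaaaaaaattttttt

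These 10 letters, on either strand, were found in 10 of 35116 promoter windows of 300 bases (0.0285%), the CGB1 and CGB2 windows among them. The looser B box core GTTCGANNC, which overlaps it, was found in 0.829% of windows, among them that of CGB2 and not that of CGB1. The G2 copy thus held this core and the G1 copy did not. Both copies hold TTTTT, the letters of a polymerase III terminator, as do 39.2% of windows. The cyclic AMP response element TGACGTCA lay between the copy and the CGB start in both windows and is held by 1.85% of all windows. Aligned to each other, G1 and G2 matched at 99 positions and differed at 17, with 13 gap positions (85.3% identity of aligned bases). G1 held 6 CpG dinucleotides in its 126 bases and G2 held 10 in 119, with GC contents of 55.6% and 58.8%. The whole 250-base upstream stretches held 12 and 14 CpG, against a median of 11 over all windows.

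In the DMSO library 27 of the 28 SNAR copies were listed at 0, and SNAR-F alone was above 0. In the treated library 8 copies were above 0. FPKM, the unit of the table, are by definition mapped fragments scaled to the length of the RNA and the size of the library. SNAR-G1, the copy upstream of CGB1, was highest, at 0 FPKM with DMSO and 194 with Aza and TSA. SNAR-B1 and SNAR-B2, neighbours in 1 array, were both listed at 0 and then at 159 FPKM. SNAR-F, a single copy, was 15.5 FPKM with DMSO and 155 after treatment. Of the 7 it alone was above 0 in the control.

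SNAR-C3 was listed at 0 and then at 138 FPKM, and SNAR-C4, from the same array, at 0 and then at 133. SNAR-E, another single copy, was lowest of the 7, at 0 and then 89.8 FPKM. The treated values of the 7 thus spanned 2.16-fold, with a median of 155 FPKM. Summed over the 7 copies, 15.5 FPKM stood in the control against 1028 after treatment. On the scale log2((treated FPKM + 1)/(DMSO FPKM + 1)), the changes ran from 3.24 (SNAR-F) to 7.61 (SNAR-G1), with a median of 7.12. All 7 passed the filter of 1 FPKM in either library, through the treated library in 6 of them. All 7 were at least 2-fold higher, where 16.1% of the 13558 genes measured were at least 2-fold higher and 5.21% at least 2-fold lower. The rule for choosing the copies used this contrast, so nothing is read from that count. The median change of all measured genes was 0.13.

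**Figure D1:**
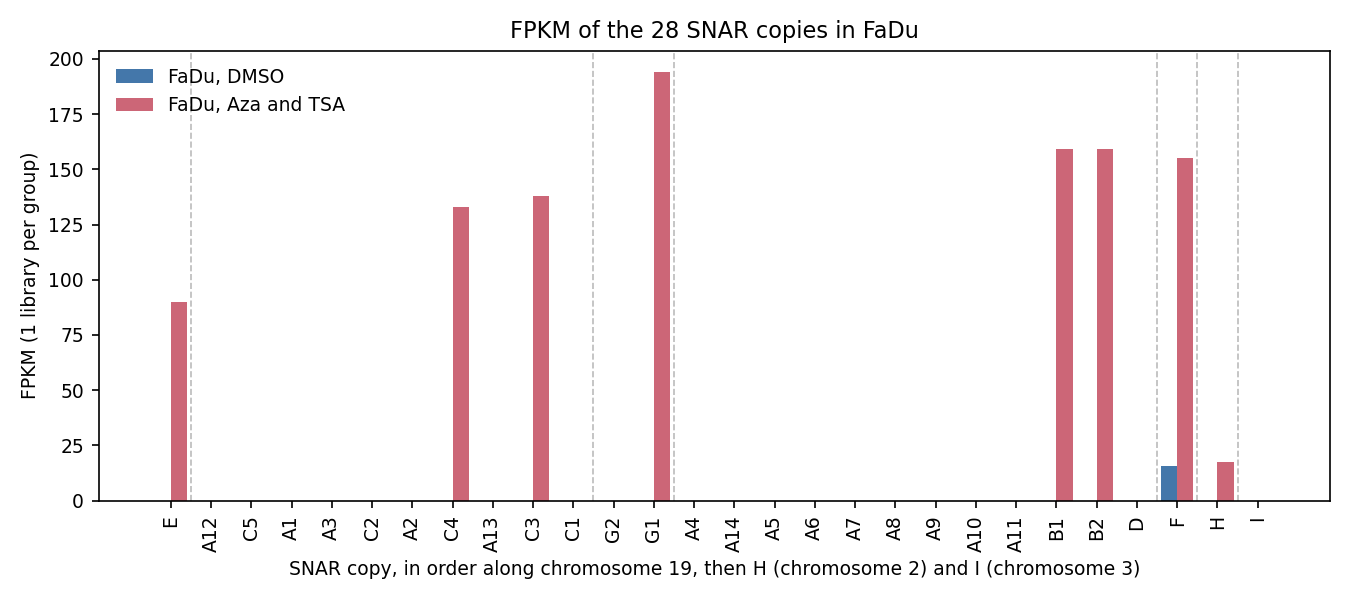
Bars give the FPKM of each of the 28 SNAR copies in the DMSO and the treated FaDu library (1 library each), ordered along chromosome 19 and then on chromosomes 2 and 3, with dashed lines between separate loci. The bars above 0 belong to 8 copies, and the 14 A copies are at 0 in both libraries.

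The other 21 copies are 14 SNAR-A copies, 3 further C copies (C1, C2 and C5), SNAR-D, SNAR-G2, SNAR-H and SNAR-I. Of these, 20 were listed at 0 in both libraries, among them all 14 A copies, the most numerous branch of the family. SNAR-H, on chromosome 2, was the exception, at 0 and then 17.3 FPKM. Copies above 0 and copies at 0 lay side by side in the same arrays. In the array of 10 A and C copies, C3 and C4 were above 0 and the 8 others at 0. In the array of 12 A, B and D copies, B1 and B2 were above 0 and the 10 others at 0. G2, which lies beside G1, was at 0 in both libraries. Since the copies are closely alike and the authors' handling of reads that match several copies is not given in the sources used here, which copy a read came from, within an array or between loci, cannot be told apart.

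How many reads stand behind these values could be counted from the table itself. Among other short RNAs of the same length, FPKM came in equal steps. Of 19 lengths from 117 to 140 bases with a value, 12 were kept because at least 80% of their values were whole multiples of the smallest one within 0.1%. At these 12, of up to 138 bases, that held for 89 of 89 values over both libraries. That step, the worth of 1 read (or read pair), fell smoothly from 19.4 FPKM at 117 bases to 9.38 at 138, and a cubic curve in length met the 12 steps within 0.015%. Over all 19 lengths, 109 of 115 values then came within 0.02 of a whole number of reads. The 89 values that set the steps are among the 115 and were whole beforehand, so only the rest bear on the curve. The same step served both libraries, so equal FPKM of equally long RNAs stand for equal numbers of reads. Whether the libraries were equally deep is not known, and reads are set side by side below with no correction for depth. No SNAR copy entered the curve.

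On this scale SNAR-F, with 15.5 FPKM per read at its 123 bases, held 1 read in the control and 10 after treatment. SNAR-H held 1 read, in the treated library. SNAR-G1 held 15 reads, against 0. The 5 other copies did not come out whole. SNAR-B1 and SNAR-B2 held 9.20 each, SNAR-C3 and SNAR-C4 7.70 each, and SNAR-E 5.2, yet the 5 together held 39.00. The sum was whole only over the B, C and E copies together, at 18.40, 15.40 and 5.2, so it is whole across 3 loci and not within any of them. C3 and C4 held the same share of reads, and their 138 and 133 FPKM differed by their lengths of 119 and 120 bases. The values of these 5 copies are therefore given as listed, and no order is read among them.

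**Figure D2:**
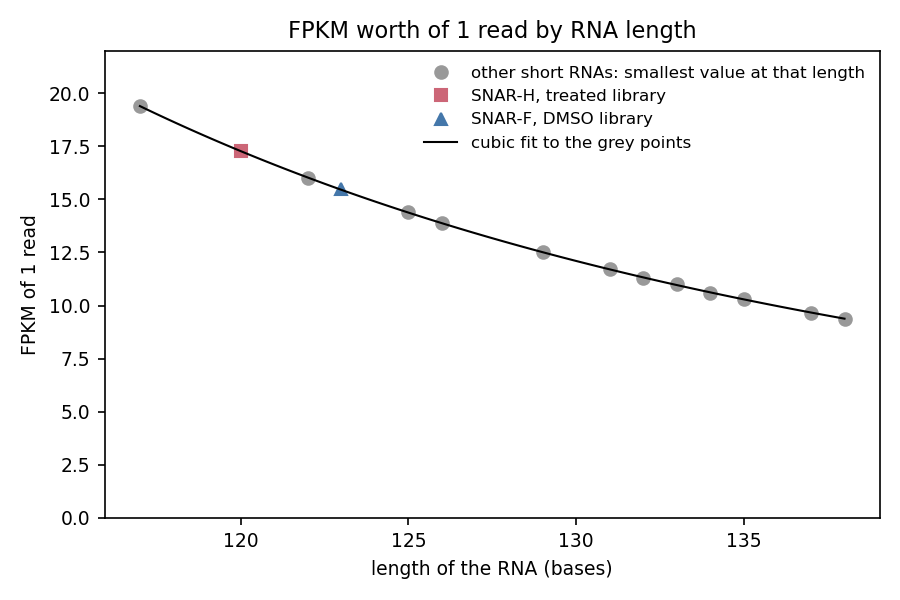
Each grey point is the FPKM worth of 1 read (vertical axis) at an RNA length in bases (horizontal axis), read from short RNAs outside the SNAR family, and the line is a cubic fit to them. SNAR-H in the treated library (17.3 FPKM at 120 bases) and SNAR-F in the DMSO library (15.5 FPKM at 123 bases), which did not enter the fit, lie on the line.

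The whole family thus rested on 1 read in the control and 65 after treatment, 64 of them on the 7 copies. Of the 65, G1 took 23.1% and F 15.4%, and the B, C and E copies took 39 reads together. Since the copies were chosen for this contrast, the numbers are given with no interval for the difference between libraries. A count of 0 in the DMSO library allows up to 3 reads, worth 51.8 FPKM for a copy of 120 bases. That limit is for a copy picked without regard to its values, and the 7 copies were picked by theirs. No fold of reads is given for the copies at 0, and the size of their log2 changes above rests on the 1 FPKM added to both values. Among the copies, G1 held 15 reads and F 10. No interval is given for this difference either, since both copies were chosen for their height, and no order is read between them. The limit of 3 reads covers counting error only, and not the spread between cultures, which 1 library per group does not show.

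Short RNAs as a whole also moved between 0 and high FPKM in this pair of libraries. Of 25548 symbols, 370 (1.45%) were listed at 0 with DMSO and reached at least 1 FPKM after treatment, and 37 (0.145%) went the other way. Of the 370, 89 were short RNAs by name (SNAR, microRNA, snoRNA, scaRNA, U, Y or vault RNA), and so were 33 of the 37. Of the 51 symbols that reached 85 FPKM from 0, a level set just under that of SNAR-E after the values were seen, 6 were SNAR copies, 44 were other short RNAs and 1 was neither. The 10 other symbols at 0 in the DMSO library whose treated FPKM lay nearest the median of the 6 such SNAR copies, 149 FPKM, were all short RNAs. They were SNORA64, MIR659, SNORD7, MIR4737, MIR671, SNORD16, MIR1276, SNORD60, MIR1287 and MIR632, at 116 to 167 FPKM. This likeness is in FPKM and over 2 libraries only. SNORA64 (134 bases) and MIR671 (118 bases) are within the lengths that were turned into reads. The others have 81 to 100 bases, where the worth of 1 read was not set, so likeness in reads is not known for them.

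By class, 7 of 28 SNAR copies (25%) were above 0 in the treated library alone, 0 in the DMSO library alone and 1 in both. H/ACA snoRNAs, which guide pseudouridylation, had 20 of 107 (18.7%) in the treated library alone, 6 in the DMSO library alone and 49 in both. The scaRNAs, their counterparts of the Cajal body, had 8 of 24 (33.3%), 2 and 10. C/D snoRNAs, which guide ribose methylation, had 28 of 276 (10.1%), 16 and 39, and microRNA hairpins 34 of 1365 (2.49%), 10 and 23. The highest short RNAs of the treated library alone were SNORD2 (4903 FPKM), SNORD30 (2451), MIR4426 (1937), SNORD57 (1492) and SNORD73A (1188). Those of the DMSO library alone were SNORD29 (8314), SNORD44 (3671), SNORD102 and SNORD96A (746 each) and SNORD31 (670). In FPKM these highest values passed those of SNAR in both directions. They were not turned into reads, so whether they held more reads than the SNAR copies is not known. Of 244 measured short RNAs outside the family 49.2% were at least 2-fold higher and 19.3% at least 2-fold lower.

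Length changes what an FPKM is worth, so the copies were set beside the 73 other short RNAs of 117 to 140 bases with at least 1 read in either library, most of them H/ACA snoRNAs and scaRNAs. Those 73 held 424 reads in the control and 573 after treatment, a ratio of 1.35, against 1 and 65 for SNAR. Of the 73, 24 had reads in the treated library alone, with a median of 2.00 reads, and 7 in the DMSO library alone, with at most 4. Only 3 of the 24 reached 5 reads, SNORA64 (14.0), MIR671 (7.68) and SCARNA21 (7), named after their values were seen. The 6 SNAR copies at 0 in the DMSO library held 5.2 to 15.00. Of the 11 with 1 read in the DMSO library, the highest held 8 in the treated library, where SNAR-F held 10. No test compares the family with these RNAs, since the copies share reads and were chosen for their height.

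**Figure D3:**
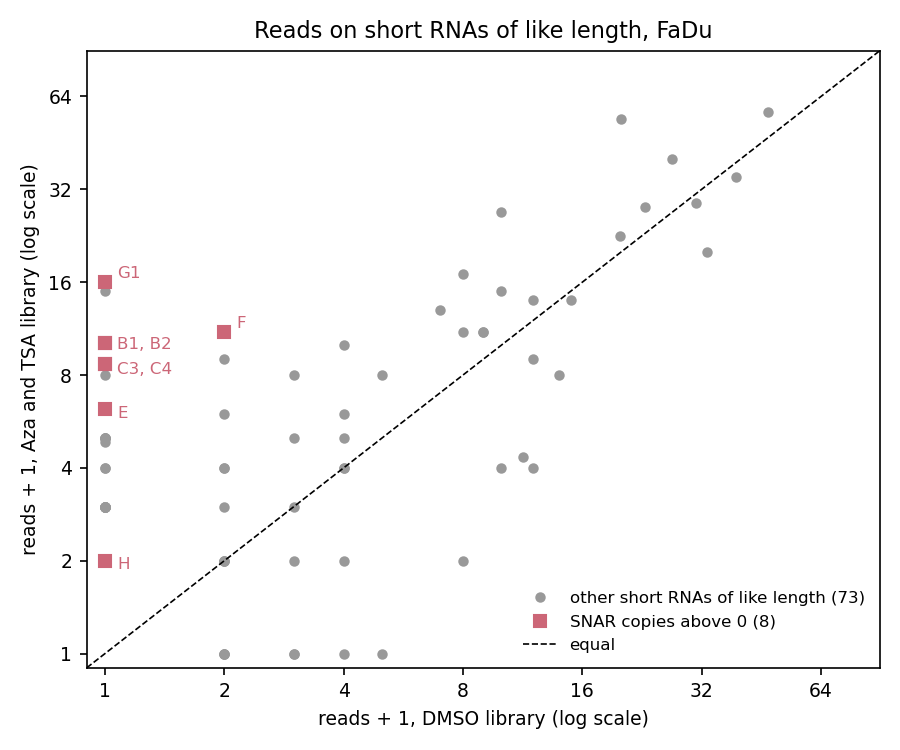
Each point is a short RNA of 117 to 140 bases, with reads + 1 in the DMSO library on the horizontal and in the treated library on the vertical log axis; grey points are 73 other short RNAs, some of which overlap, and red squares the 8 SNAR copies above 0. The SNAR copies lie on the left edge, at 0 reads in the DMSO library, except SNAR-F at 1 read, and all lie above the dashed line of equality.

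Other RNAs made by polymerase III went in several directions. Of 23 listed, 19 were in the table and 9 reached 1 FPKM in a library. Of these 9, 3 were at least 2-fold higher and 2 at least 2-fold lower, where 16.1% and 5.21% of all measured genes were. The median log2 change of the 9 was 0.87, and 0.02 once a trend of change with GC content, described below for all genes, was subtracted. The 7SK RNA (RN7SK), a regulator of transcription elongation, was level at 19 and 18.9 FPKM. The signal recognition particle RNAs RN7SL1 (65.1 and 120 FPKM) and RN7SL2 (73.3 and 147) were near 2-fold. RN7SL2 was past it by the ratio of its FPKM (2.01) and not once 1 FPKM was added to both values. RMRP, the RNA of the RNase MRP enzyme, was 0.834 and 5.83 FPKM. BCYRN1, which like SNAR derives from an Alu left arm, went the other way, at 169 and 73.8 FPKM. Of the Y RNAs, parts of the Ro particle, RNY1 was 45.6 and 0 FPKM and RNY4 0 and 51.8. These rows were not turned into reads. With 1 read worth 19.4 FPKM at 117 bases, values of this size can rest on few reads, and no direction is read from them. The 5S rRNA row RN5S1 was 0 and 4.16 FPKM, and the 4 vault RNAs and the U6 rows were at 0 in both libraries. RNY4, RN5S1 and RMRP reached 1 FPKM through the treated library alone and RNY1 through the DMSO library alone. Their direction was thus fixed by that filter.

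The machinery that transcribes these RNAs is given beside the 16.1% higher and 5.21% lower of all measured genes, and nothing particular to it is read from the counts. Of 18 RNA polymerase III subunits, all measured, 2 were at least 2-fold higher and 1 at least 2-fold lower (median log2 change 0.39). The first 2, POLR2L (55.2 and 128 FPKM) and POLR2E (12.7 and 30.1), are shared by all nuclear RNA polymerases. POLR3G, an alternative subunit high in stem cells and tumours, was 7.60 and 2.94 FPKM, while its paralogue POLR3GL was 11.7 and 9.61. POLR3D, a core subunit, was 9.25 and 18.1.

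Of 17 genes, the initiation factors with the repressor MAF1 counted among them, 3 were at least 2-fold higher and 0 lower (median 0.35). All 3 belong to SNAPc, the complex of upstream promoters such as that of U6: SNAPC5 (8.82 and 24.9 FPKM), SNAPC4 (6.16 and 16.1) and SNAPC2 (2.40 and 6.81). None of the 6 TFIIIC subunits, which bind the B box, reached 2-fold. The one furthest from 0 was GTF3C5, at 34.7 and 59.0 FPKM. Across 7127 genes the log2 change followed the GC content of the transcript (Spearman correlation 0.666, genes not being independent). With that trend subtracted, 942 genes were at least 2-fold higher and 544 at least 2-fold lower among genes with GC content (12526 measured). Of the 18 subunits 0 were then past 2-fold in either direction, and SNAPC5 alone of the 17 genes was.

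Proteins that bind RNAs of this kind differed in direction. ILF2, a nuclear RNA binding protein, was 152 and 220 FPKM. SSB, the La protein that binds the U-rich ends of polymerase III transcripts, was 105 and 70.4. Of the 18 double-stranded and small RNA binding proteins listed, TARBP2, a Dicer partner, was at least 2-fold higher (5.64 and 15.5 FPKM) and STAU2, a Staufen protein, at least 2-fold lower (14.1 and 5.07), with a list median of 0.06, where 16.1% of all measured genes were higher and 5.21% lower. STRBP, a spermatid RNA binding protein, was 9.53 and 5.30 FPKM, and the RNA editing enzyme ADAR 59.3 and 95.4. After the GC trend was subtracted none of the 18 was past 2-fold.

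**Figure D4:**
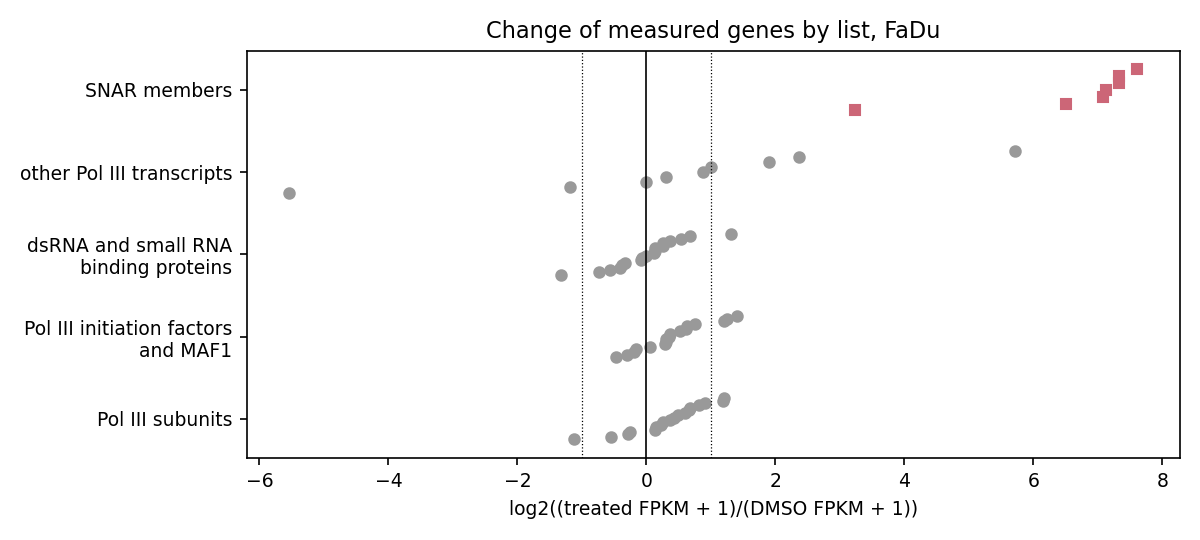
Each point is a gene measured at 1 FPKM or more in either FaDu library, by its log2((treated FPKM + 1)/(DMSO FPKM + 1)) on the horizontal axis and its list on the vertical axis; dotted lines mark 2-fold and dsRNA stands for double-stranded RNA. The 7 SNAR copies lie from 3.24 to 7.61, and the subunits and initiation factors of RNA polymerase III (Pol III) mostly within 2-fold.

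Most genes around the copies were within 2-fold or unmeasured. The 3 nearest gene symbols of the table on either side of each copy came to 44 genes, of which 17 were measured, 2 were at least 2-fold higher and 2 lower (median 0.42). Of all measured genes 16.1% were at least 2-fold higher and 5.21% at least 2-fold lower. The 2 lower, MRPL19 (9.94 and 4.45 FPKM) and IL1RAP (23.5 and 7.73), lie near SNAR-H and SNAR-I. With only the 1 nearest symbol on either side, there were 16 genes. Of these, 2 were measured, and 0 were higher and 0 lower. The array that holds C3 and C4 lies between SULT2A1, a hydroxysteroid sulfotransferase, and the sperm protein genes BSPH1 and ELSPBP1. These 3, TPRX1 and CRX were at 0 in both libraries, and CABP5 was 0.0183 FPKM and 0. Beside the B copies the sperm protein gene IZUMO2 was 0 and 0.391 FPKM, and the myosin gene MYH14 was 7.41 and 8.86. Beside SNAR-E, AP2S1, a subunit of the clathrin adaptor, was 39.7 and 67.4 FPKM. Near SNAR-F, SYT3, a synaptotagmin, was 0 and 0.0523 FPKM, and C19orf81 was 0 and 1.28.

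CGB1 and CGB2, which follow SNAR-G1 and SNAR-G2 in the sequences above, were both low. CGB1 was 0.0188 FPKM with DMSO and 0.292 after treatment, and CGB2 was 0.0188 and 0.207. The related hormone genes CGB (0.0589 and 0.596 FPKM), CGB5 (0.0588 and 0.595) and CGB8 (0.0582 and 0.807) were also under 1 FPKM, CGB7 was 0.764 and 0.867, and LHB 0.375 and 0.562. These genes are near-identical to each other, so the value of a single one is uncertain. CGA, the alpha chain shared by these hormones and encoded on another chromosome, was 0 and 6.68 FPKM. The microRNA cluster of chromosome 19, another large array of short RNAs next to Alu elements, had all 46 members in the table and none at 1 FPKM in either library.

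**Figure D5:**
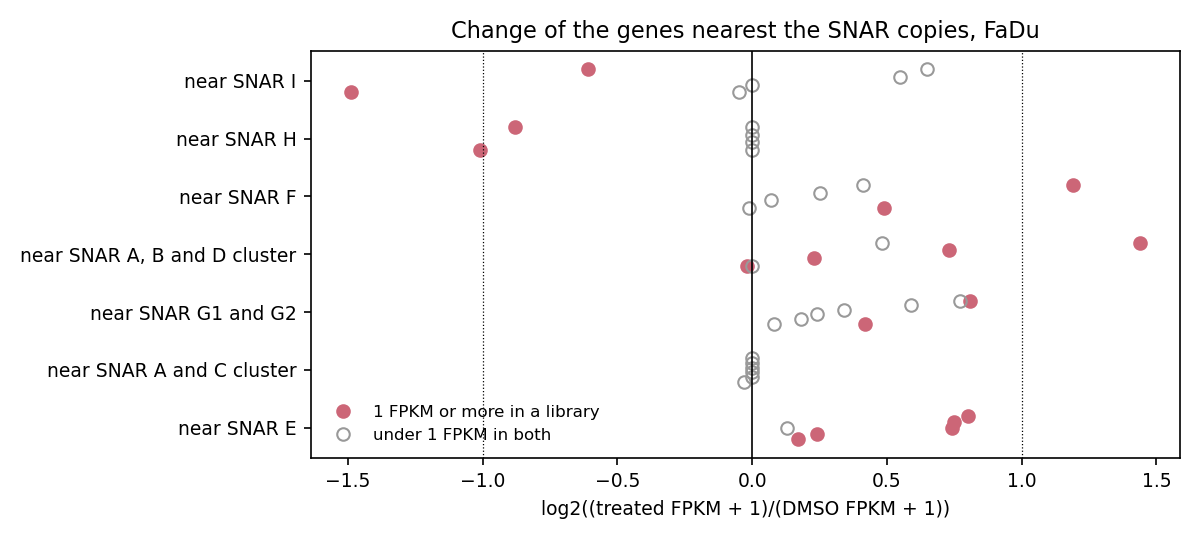
Each point is 1 of the 44 genes nearest the SNAR copies, by its log2((treated FPKM + 1)/(DMSO FPKM + 1)) on the horizontal axis and by locus on the vertical axis; filled points reached 1 FPKM in a library, open points did not, and dotted lines mark 2-fold. Of the 44, 4 lie past 2-fold, 2 higher and 2 lower.

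Markers were read beside these values. Of all measured genes 16.1% were at least 2-fold higher and 5.21% at least 2-fold lower. After the GC trend was subtracted, 942 were higher and 544 lower among genes with GC content (12526 measured). Of 10 squamous epithelial markers all were measured, with KRT17 at 1164 and 1341 FPKM and KRT5 at 687 and 226. KRT14 was at least 2-fold higher, at 49.8 and 147 FPKM, a call lost after the GC trend was subtracted (log2 change 0.78). TP63 (73.7 and 23.2) and DSG3 (22.1 and 3.16) were, with KRT5, at least 2-fold lower, and 4 of the 10 were after the GC trend was subtracted. SNAR RNAs are known from testis, and 3 of 10 testis germ-cell markers were measured. They reached 1 FPKM through the treated library alone, so their direction was fixed by that filter. They were DAZL (0 and 79.6 FPKM), MAEL (0 and 14.5) and SYCP3 (0.152 and 13.9), while the sperm genes PRM1, PRM2, TNP1 and ODF1 were at 0 in both libraries. Of 10 trophoblast markers 3 were measured, again through the treated library alone: CGA, ERVW-1 (0.128 and 2.25) and PSG1 (0.164 and 1.01). Of 10 leukocyte markers 2 were measured and both were at least 2-fold higher, CD68 (13.0 and 51.3) and CD14 (1.62 and 4.59). After the GC trend was subtracted CD68 was past 2-fold (log2 change 1.37) and CD14 was not (0.44). PTPRC, the pan-leukocyte marker, was 0.0513 and 0.0385 FPKM. The part of these differences in the SNAR values was not tested, and in such bulk RNA more cells with an RNA and more RNA per cell cannot be told apart.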

How the data were processed

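RNA of FaDu and UMSCC47 cells was sequenced from 4 stranded mRNA libraries, 1 per group, and groups were taken from the labels. The authors deposited 1 table of FPKM, per the file headers. The submitters' processing notes name TopHat 1.3.2, Cufflinks 2.0.2 and the build hg19. Not given in the sources used here are the gene annotation, the read layout, how reads with several matches were treated and whether libraries were scaled. Absolute depth is unknown. The FaDu columns sum to 491963 and 516692 FPKM. The UMSCC47 columns listed GAPDH at 0.290 and 0.177 FPKM, against 2590 and 2971 in FaDu, and correlated with each other at a Spearman value of 0.124 across rows, against 0.908 in FaDu, so they were used for no gene.

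The 45 repeated rows were summed. Changes were taken as the log2 ratio of treated to control values after 1 FPKM was added to both, and so are too small for low genes; genes counted as measured at 1 FPKM in either library and as higher or lower at 2-fold. No p-value was computed, each group being 1 library. Lengths, neighbours and promoters came from RefSeq tables (GRCh38.p14), by symbol; all 28 SNAR copies matched a length and none a promoter of its own. GC content came from the longest GENCODE 29 transcript, for 12526 of 13558 measured genes and none of the SNAR copies. Reads per short RNA were FPKM over the worth of 1 read, within 117 to 140 bases, a step added after the values were seen. Lengths were searched from 110 bases, and those under 117, the shortest that was kept, were dropped. The scripts were tested on simulated data. Python 3.11.15, pandas 2.3.3 and statsmodels 0.14.6 were used.

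The copies, gene lists and rules were chosen with earlier results of these data known. Named genes are all SNAR copies, the 3 nearest symbols on either side, up to 4 members per list with the widest change, ILF2, CGB1, CGB2, the 10 symbols most like the copies and the highest short RNAs present in 1 library alone; some genes the rule takes in are not reported here by name. Other genes named, such as RN7SK, SSB and the paralogues and markers given at low or level values, were chosen after their values were seen.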

Additional observations from a re-analysis of the deposited data

How the results depend on the processing

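All 7 copies were at least 2-fold higher at pseudocounts of 0.1 and 5, without a filter or with one at 5 FPKM, at 4-fold, after scaling to TPM or by the median ratio, and with the highest row per symbol. The size of the change followed the pseudocount and the scaling, with 6 of the 7 copies listed at 0: the median log2 change of 7.12 became 10.43 at a pseudocount of 0.1, 4.84 at 5, and 8.07 after scaling to TPM. Over all genes, 2178 higher and 706 lower became 893 and 253 at a pseudocount of 5, 496 and 91 at 4-fold, and 942 and 544 after GC correction, with 1182 lower at a pseudocount of 0.1 and 1152 lower with TPM. The 65 reads of the family in the treated library were 64.97 with a quadratic fit, 64.92 by interpolation and 64.99 with multiples taken within 1%, alternatives chosen after seeing the data. The GC correction could not be applied to the SNAR copies. No paired analysis was possible because each group has 1 library. Depth limits the values of short RNAs, since 1 read on an RNA of 120 bases is worth 17.3 FPKM, as do the single library per group and the unstated handling of reads with several matches.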
